A study of Mus musculus with 12 samples.

Results

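A set of 9 heat shock protein and chaperonin genes, of 19012 gene symbols in the data, was followed through 12 mouse liver libraries. They were chosen by name: Hspa1a, Hspa1b, Hspa8, Hsph1, Dnajb1, Hsp90aa1, Hspb1, Hspd1 and Hspe1. In the deposited data 8 were found by symbol, and Hsph1 was found by accession under its older symbol Hsp110. The libraries came from 4 wild-type livers, 4 livers labelled E2F7/8 DKO (double knockout of the atypical, repressing E2F factors E2f7 and E2f8) and 4 liver tumors with the same genotype label. By animal codes in the deposited names, liver and tumor of each DKO replicate number are from 1 animal, so the DKO livers are livers of 4 tumor-bearing animals and the wild-type livers are of 4 other animals. Age, sex, strain, the promoter or Cre that made the knockout and the deleted part of each gene are not given. Polyadenylated RNA was sequenced on a SOLiD instrument, and levels are given in RPKM (reads per kilobase of exon and per M reads; M, mega).

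The libraries held between 7.985 and 15.956 M reads, so that 1 read in 2 kb of exon was worth 0.0313 to 0.0626 RPKM. E2f7 lay at 0.103 to 0.200 RPKM in wild-type livers, 0.211 to 0.400 in DKO livers and 0.0365 to 0.259 in DKO tumors. E2f8 lay at 1.66 to 4.30, 2.80 to 20.8 and 1.66 to 12.2 RPKM in the same order. Neither transcript was lower in the DKO livers, and without the deleted exons these values check no label. Summed RPKM of 10 hepatocyte markers was 65857 to 165178 over the libraries, with no marker at 0. The names of wild-type livers 1 and 2 and of the 4 DKO livers carry the tag L02, and those of wild-type livers 3 and 4 and of the 4 tumors carry L03. What the tags stand for is not stated, and the tag cannot be told apart from tissue between tumors and DKO livers. Where the tag is a covariate, its effect is set by wild-type livers 1 and 2 against 3 and 4 alone. Both libraries of DKO animal 1 and both of animal 2 had 9.24 to 11.2 RPKM of the clock gene Arntl, against 0.484 to 2.26 in the other libraries.

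Heat shock proteins are molecular chaperones that bind unfolded or partly folded proteins. In the cytosol HSP70 proteins (Hspa1a, Hspa1b, Hspa8) take up clients handed over by J-domain proteins such as Dnajb1, exchange their nucleotide with the help of HSP110 (Hsph1), and pass some clients on to HSP90 (Hsp90aa1). The small heat shock protein Hspb1 holds unfolding proteins without ATP, and Hspd1 with its lid Hspe1 forms the folding chamber of the mitochondrial matrix. The genes share the transcription factor HSF1, which binds inverted repeats of the letters GAA, called heat shock elements, and is activated by heat, oxidation and misfolded protein.

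Promoter sequences are shown for the heat shock elements they hold. RefSeq promoters on GRCm38.p6, running from 250 bases before to 50 after each annotated start, were found for 7 of the 9 genes, and none were found for Hspa8 and Hsp90aa1. Hspa1a and Hspa1b lie 10121 bases apart on chromosome 17, and their promoters are identical at 296 of 300 positions. The 250 bases before each start are printed in lower case, with the heat shock element GAANNTTC in capitals (chr17:34972157-34972406 and chr17:34959239-34959488, both minus strand).
Hspa1a: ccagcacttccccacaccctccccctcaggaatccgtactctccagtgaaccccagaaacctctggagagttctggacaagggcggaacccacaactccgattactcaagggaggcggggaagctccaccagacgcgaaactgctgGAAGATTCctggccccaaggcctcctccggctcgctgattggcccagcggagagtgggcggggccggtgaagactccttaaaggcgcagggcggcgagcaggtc
Hspa1b: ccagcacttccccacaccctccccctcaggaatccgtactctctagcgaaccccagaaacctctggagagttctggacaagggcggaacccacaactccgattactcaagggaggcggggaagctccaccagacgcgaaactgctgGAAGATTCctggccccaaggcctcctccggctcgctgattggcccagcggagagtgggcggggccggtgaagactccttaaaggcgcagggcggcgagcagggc
In both genes the match lies at bases −104 to −97 from the start. On either strand GAANNTTC was present in 7.86% of 32851 promoters of this length and TTCNNGAA, its counterpart in the other phase, in 8.52%. These motifs overlap in longer runs, and either of them was present in 15.1%.

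Longer elements, in which GAANNTTC goes on with NNGAA or TTCNNGAA with NNTTC, were present in 0.603% of all promoters and in those of Hspe1, Hspd1 and Hsph1. Hspd1 and Hspe1 are read in opposite directions from starts that lie 472 bases apart in the deposited annotation, and the same run serves as the match for both. Hspb1 holds 2 separate matches to GAANNTTC. The 4 stretches of 30 bases that carry these matches are printed from 5′ to 3′ on the strand of each gene, with the matched letters in capitals (Hspe1 chr1:55088053-55088082 plus strand, Hspd1 the same bases on the minus strand, Hsph1 chr5:149636280-149636309 minus strand, Hspb1 chr5:135887801-135887830 plus strand, all GRCm38.p6).
Hspe1: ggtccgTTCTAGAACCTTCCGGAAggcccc
Hspd1: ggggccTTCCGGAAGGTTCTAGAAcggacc
Hsph1: tgctgcagaTTCTGGAAAGTTCtcctcagt
Hspb1: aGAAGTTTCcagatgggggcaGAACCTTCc
The Hspe1 stretch lies at bases −95 to −66 from its start, and the Hspb1 matches end at bases −110 and −90. The Hsph1 stretch follows the start, at bases 7 to 36 from the second of 2 annotated starts. Hsph1 also holds a separate match to TTCNNGAA before the start, at bases −54 to −47 from the same annotated start. The Hspd1 stretch was found for the second of 2 annotated starts. Neither of the 2 Dnajb1 entries held any of these letters in its window. A match in a window is a description of letters and no evidence of binding.

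The genes differ in how much of their transcript is unique. Of all windows of 50 bases in the Hspa1b transcript, 62.3% also occur in Hspa1a, and of the Hspa1a windows 58.8% occur in Hspa1b. For Hspa8, 74.8% of the windows occur in 1 or more of 13 other genes, and 70.02% of all its windows occur in the copy Gm15459. Shared windows made up 58.5% of Hsp90aa1, 51.6% of Hspb1, 44.8% of Hspd1 and 44.8% of Hspe1, against 0.441% of Dnajb1 and 0% of Hsph1. How reads that fit several places were handled is not stated, so the split between Hspa1a and Hspa1b is uncertain. The levels of Hspa8, Hsp90aa1, Hspb1, Hspd1 and Hspe1 are uncertain for the same reason. No other gene in the deposited annotation overlaps any of the 9. Whether counting used the strand of a read is not given.

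By mean RPKM over the 12 libraries, the chaperonins Hspd1 (44.5) and Hspe1 (32.5) came first, then Dnajb1 (19.0), Hsph1 (14.3), Hsp90aa1 (9.09), Hspa8 (5.37), Hspb1 (1.88), Hspa1b (1.51) and Hspa1a (0.335). Ranges over the libraries overlapped between each pair of neighbours in that order. From the lowest to the highest library, Hspd1 varied 1.77-fold, Hspe1 2.60-fold and Dnajb1 2.68-fold. The spread was 20.4-fold for Hspa8, 50.9-fold for Hspa1a and 56.4-fold for Hspa1b, the last 2 from counts as low as 1 and 3 reads.

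**Figure D1:**
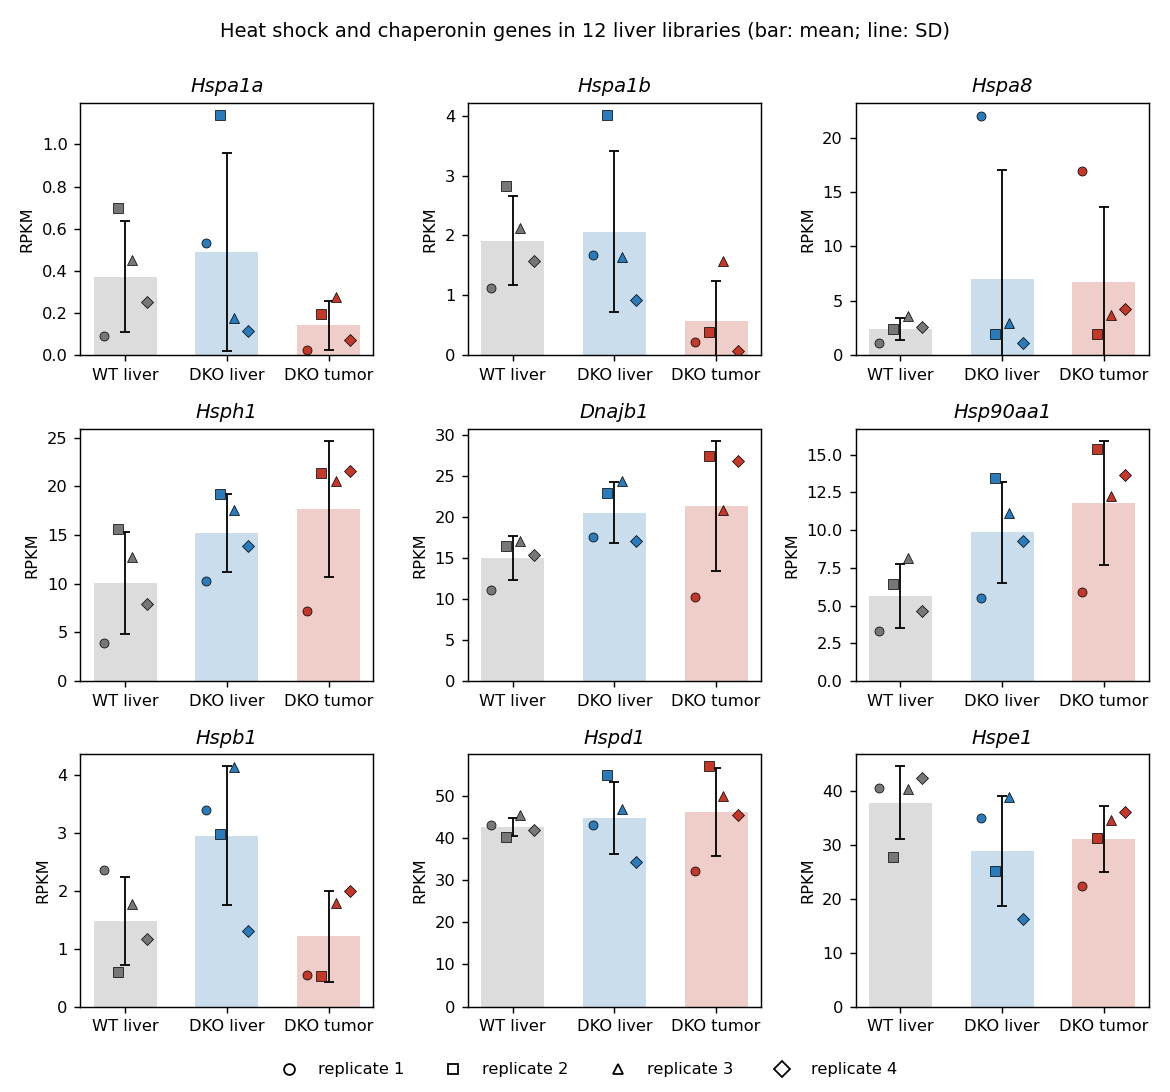
RPKM of each gene in each library by group; symbols mark replicate numbers, bars the mean of 4 libraries and lines the SD, cut at 0. Hspa8 stands out in the liver (21.97) and tumor (17.0) of DKO animal 1, and 3 of 4 tumors lie below every wild-type liver for Hspa1b.

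The inducible HSP70 gene Hspa1b (mm9 chromosome 17, 35093373 to 35096182, minus strand) had its 3 lowest values in tumors, but no difference between groups passed the test. It was at 1.11, 2.83, 2.13 and 1.58 RPKM in wild-type livers 1 to 4. DKO livers 1 to 4 had 1.68, 4.01, 1.65 and 0.921 RPKM, and DKO tumors 1 to 4 had 0.223, 0.392, 1.57 and 0.0711. Tumors 1, 2 and 4 lay below all wild-type and all DKO livers, and tumor 3 lay within both groups. Means were 1.91 ± 0.741 RPKM for wild-type, 2.06 ± 1.34 in DKO livers and 0.564 ± 0.682 in tumors (SD, n = 4 each, as for every ± on this scale). Tumors differed from wild-type livers by −0.95 on the log2(RPKM + 1) scale (SE 0.32), with an adjusted limma p = 0.125 (unadjusted p = 0.0101; exact permutation p = 0.0571). With an offset of 0.1 in place of 1 this difference was −2.05, and with voom on recovered reads −2.52, and neither passed (limma adjusted p = 0.0948 and 0.0785). Against DKO livers the difference was −0.97 (SE 0.32; limma adjusted p = 0.174, and 0.154 with the animal as a block). Without animals 1 and 2 it was −0.44, and with the offset of 0.1 and with voom −2.04 and −2.47. In unscaled RPKM tumor was below liver in 4 of 4 animals, but in animal 3 the values were close (57 reads in liver, 63 in tumor). After median-of-ratios scaling tumor 3 (1.40) was above its liver (1.27). Leaving out tumor 3, which lay within the range of the livers, moved the difference from wild-type to −1.22 (limma adjusted p = 0.036) and that from DKO livers to −1.23 (adjusted p = 0.0416). In that setting calls over all 11351 genes rose too. They were 175 higher and 238 lower against wild-type livers, and 79 higher and 284 lower against DKO livers. Over all alternatives the limma adjusted p ranged from 0.036 to 0.466 against wild-type livers and from 0.0416 to 0.99997 against DKO livers. The difference between DKO and wild-type livers was 0.02 and changed sign with the scaling.

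Its neighbour Hspa1a (35106303 to 35109100, minus strand) was too low to be tested, since a gene had to reach 0.5 RPKM in 4 libraries. Wild-type livers had 2, 25, 15 and 10 reads, DKO livers 18, 32, 6 and 3, and tumors 1, 7, 11 and 3. Both genes were highest in DKO liver 2 and second highest in wild-type liver 2. Over the 12 libraries their log2 values had a Pearson r of 0.858, which includes any reads that fit both. Means of Hspa1a were 0.372 ± 0.262 RPKM for wild-type livers, 0.490 ± 0.470 for DKO livers and 0.141 ± 0.115 for tumors, and the exact permutation p for tumors against wild-type livers was 0.171.

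Clec4f, a lectin of Kupffer cells, also had its 3 lowest values in tumors 1, 2 and 4. It was at 28.5, 79.6, 88.9 and 40.0 RPKM in wild-type livers, 150.5, 60.3, 120.8 and 99.3 in DKO livers, and 13.5, 20.4, 81.2 and 2.63 in tumors. Tumor 3 was the highest tumor, and tumor 4 the lowest, for both Clec4f and Hspa1b. The orders differed among DKO livers: Hspa1b was highest in liver 2 (4.01 RPKM), where Clec4f was lowest (60.3). Clec4f was highest in DKO liver 1 (150.5), where Hspa1b was at 1.68. Against wild-type livers, DKO livers differed by 0.02 for Hspa1b and by a median of 0.71 for the 10 macrophage markers, all above 0. All 10 macrophage markers had lower means in tumors than in DKO livers (median log2 difference −1.34) and none passed the test. Against wild-type livers 8 of 10 were lower and 2 higher (median −0.84), again with none passing. The macrophage lysozyme gene Lyzs was at 59.96 ± 12.6 RPKM in tumors and 51.2 ± 22.8 in wild-type livers. The summed RPKM of the 10 markers was 124.8 to 363.5 in wild-type livers, 246.8 to 664.4 in DKO livers and 96.2 to 314.7 in tumors, with none at 0. All 10 stellate cell markers also had lower means in tumors than in DKO livers (median −0.79), and all 9 lymphocyte markers tested did (−0.55). The part of these cells in the Hspa1b values was not tested. In bulk RNA, fewer cells of a type and less RNA per cell cannot be told apart.

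The constitutive HSP70 gene Hspa8 (chromosome 9, 40609355 to 40613281, plus strand) was high in 1 animal. Wild-type livers had 1.13, 2.37, 3.56 and 2.57 RPKM. The liver of DKO animal 1 had 21.97 RPKM (559 reads) and its tumor 17.0 (570 reads). The livers of animals 2 to 4 had 1.99, 2.97 and 1.08 RPKM and their tumors 1.91, 3.66 and 4.21, all within or near the wild-type range. The lower of the 2 libraries of animal 1 was 4.04 times the highest of the other 10, whose median was 2.47 RPKM. Group means were 2.41 ± 0.997 RPKM in wild-type livers, 7.002 ± 10.01 in livers of DKO mice and 6.69 ± 6.93 in their tumors. Neither DKO livers (log2 difference 0.57, SE 0.69, limma adjusted p = 0.751) nor tumors (0.86, SE 0.69, adjusted p = 0.547) differed from wild-type beyond the spread. Without animal 1, a setting chosen after seeing the data, the means were 2.01 in DKO livers and 3.26 in tumors, and the differences from wild-type were −0.18 and 0.33.

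Of the 11351 genes tested, Hspa8 was the only one with at least 4 times the highest other library in both libraries of animal 1. This limit was set after the ratio of Hspa8 was seen and lies just under it, so the count is a description. The same count was 0 genes for animal 2, 4 for animal 3 and 1 for animal 4. The nearest tested genes on chromosome 9 were not raised in the same way. Gramd1b was at 1.09 and 1.11 RPKM in the liver and tumor of animal 1, against 0.307 to 1.62 elsewhere, and Ubash3b at 1.22 and 0.155 against 0.267 to 0.976. The other chaperones had no pattern common to both libraries of this animal, but all of them ranked low in its tumor. Its liver was the second highest of 12 libraries for Hspb1, the third for Hspa1a and the fourth for Hspa1b, and ranked 6th to 10th for the other 5 genes. Its tumor was the lowest of 12 libraries for Dnajb1, Hspd1 and Hspa1a, the second lowest for Hsph1, Hspa1b, Hspe1 and Hspb1, and 9th for Hsp90aa1. That tumor library had the smallest scaling factor by median-of-ratios (0.762). After such scaling it ranked 12th for Hspa1a, 11th for Dnajb1 and Hspa1b, 10th for Hsph1 and Hspb1, 9th for Hspe1 and 8th for Hspd1 and Hsp90aa1. Hspa8 correlated with the 8 other genes at r between −0.304 and 0.063 over the 12 libraries.

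**Figure D2:**
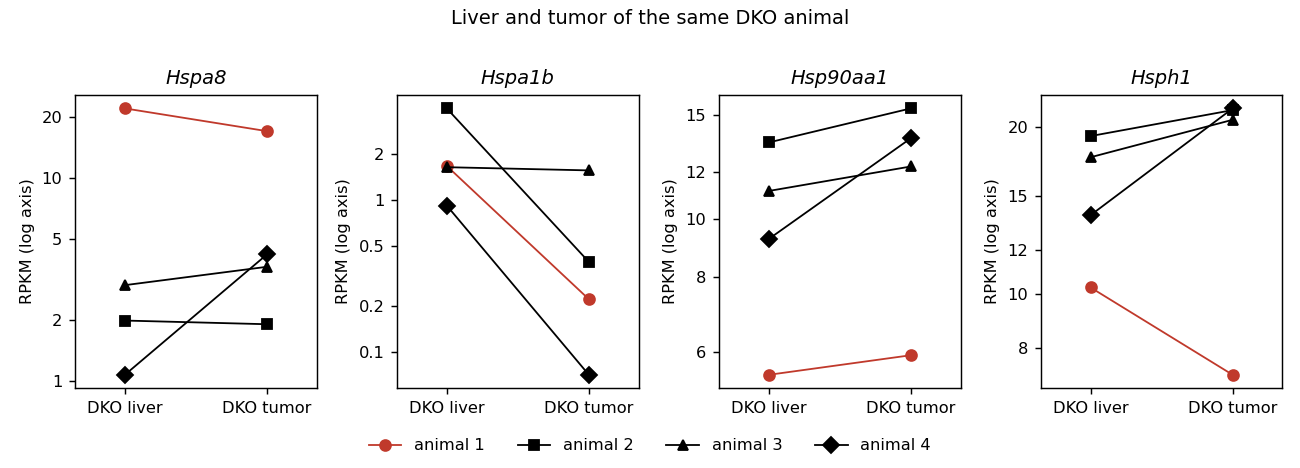
RPKM on a log axis in liver and tumor of each DKO animal; lines join the 2 libraries of an animal, and animal 1 is red. Hspa1b is lower in tumor than in liver along all 4 lines, with nearly level values in animal 3 (1.65 in liver, 1.57 in tumor). Hsp90aa1 is higher in tumor along all 4, and Hspa8 of animal 1 lies above the other animals in both tissues.

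Dnajb1 (chromosome 8, 86132091 to 86135801, plus strand), the J-domain partner of the inducible HSP70 proteins, was the 1 gene of the 8 tested whose DKO livers did not overlap wild-type livers in RPKM. It was at 11.1, 16.5, 17.0 and 15.4 RPKM in wild-type livers and 17.6, 23.0, 24.4 and 17.1 in DKO livers. DKO tumors had 10.2, 27.5, 20.9 and 26.8 RPKM, with tumors 2, 3 and 4 above all wild-type livers and tumor 1 below them all. The gap between the highest wild-type liver (17.04) and the lowest DKO liver (17.09) was small. After median-of-ratios scaling the groups overlapped, with DKO liver 1 (16.15) below wild-type livers 2, 3 and 4 (16.35, 16.28 and 16.20). Tumor 1 (13.44) then lay above wild-type liver 1 (11.82), and tumors 2, 3 and 4 stayed above all wild-type livers. Across all genes tested, groups did not overlap in 7.59% for this comparison and were higher in DKO liver without overlap in 5.62%. The difference was 0.43 (SE 0.27; limma adjusted p = 0.507), with an exact permutation p = 0.0286 on unscaled RPKM, the smallest that 70 splits allow and the only one under 0.05 among 27 such tests. Tumors differed from wild-type livers by 0.41 (SE 0.27; limma adjusted p = 0.432), which became 0.71 without tumor 1 and 0.26 without tumor 2.

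Hsph1 (chromosome 5, 150419419 to 150438889, minus strand), the HSP110 exchange factor, and Hsp90aa1 (chromosome 12, 111929245 to 111934604, minus strand), the inducible HSP90, followed Dnajb1 from library to library. Hsph1 was at 3.89, 15.7, 12.7 and 7.94 RPKM in wild-type livers, 10.3, 19.2, 17.6 and 13.9 in DKO livers, and 7.15, 21.4, 20.6 and 21.6 in tumors. Tumors 2, 3 and 4 lay above all wild-type and all DKO livers in unscaled RPKM, and tumor 1 lay below the DKO livers. After median-of-ratios scaling tumor 3 (18.3) lay below DKO liver 2 (19.4), and tumor 1 (9.39) was nearly level with DKO liver 1 (9.43). Hsp90aa1 was at 3.30, 6.44, 8.15 and 4.61 RPKM in wild-type livers, 5.48, 13.5, 11.2 and 9.27 in DKO livers, and 5.92, 15.4, 12.3 and 13.7 in tumors. Its 3 higher DKO livers and 3 higher tumors were above all wild-type livers, and both libraries of animal 1 were within the wild-type range. Log2 values of Hsp90aa1 and Hsph1 had r = 0.930 over the 12 libraries, those of Dnajb1 and Hsph1 0.898, and those of Hsp90aa1 and Dnajb1 0.871. These libraries share animals, tags and any difference in depth, so the correlations are given as a description.

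The Hsp90aa1 means were 5.62 ± 2.12 RPKM in wild-type livers, 9.84 ± 3.38 in livers of DKO mice and 11.8 ± 4.13 in their tumors. Tumors were 2.10 times wild-type livers (log2 difference 0.94, SE 0.32, unadjusted limma p = 0.0111, adjusted p = 0.132; exact permutation p = 0.0857). DKO livers were 1.75 times wild-type livers (0.71, SE 0.32, unadjusted limma p = 0.0435, adjusted p = 0.399; exact permutation p = 0.114). Within animals tumor was above liver in 4 of 4, by a mean of 0.23 ± 0.195 (SD). With the tag as a covariate this difference was −0.11, and that tag effect comes from the wild-type livers alone. For Hsph1 the means were 10.1 ± 5.20, 15.2 ± 4.01 and 17.7 ± 7.03 RPKM, with tumors 0.79 above wild-type (SE 0.41; limma adjusted p = 0.317) and DKO livers 0.66 above (SE 0.41; adjusted p = 0.503). Wild-type liver 1 was the lowest of the 12 libraries for both genes and the shallowest library. Without it the Hsph1 differences were smaller, at 0.44 for tumors and 0.32 for DKO livers. For both genes the differences of DKO livers and of tumors from wild-type livers kept their sign in every setting run, and none passed the threshold in any.

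The small heat shock gene Hspb1 (chromosome 5, 136363788 to 136365432, plus strand) was highest in DKO livers. Wild-type livers had 2.36, 0.605, 1.77 and 1.17 RPKM, DKO livers 3.39, 2.98, 4.13 and 1.31, and tumors 0.555, 0.523, 1.78 and 1.99. DKO livers 1, 2 and 3 lay above all wild-type livers and all tumors. Reads were few, between 6 and 46 per library. DKO livers were 2.003 times wild-type livers (log2 difference 0.67, SE 0.31, unadjusted limma p = 0.0482, adjusted p = 0.402; exact permutation p = 0.114). Tumors lay below DKO livers by −0.85 (SE 0.31; limma adjusted p = 0.207, and 0.229 with the animal as a block) and were lower in 3 of 4 animals. Without animals 1 and 2 this difference was −0.26. For DKO livers against wild-type, all 10 endothelial (median 0.55), all 10 stellate (0.72) and all 10 macrophage markers (0.71) had positive differences. So did all 9 lymphocyte markers tested (0.32), 5 of 6 cholangiocyte (0.62) and 3 of 4 muscle markers (0.64). The same held for 5 of 5 red blood cell (0.14) and 6 of 10 hepatocyte markers (0.09), and for 6863 of all 11351 genes tested. No marker passed the test. Summed endothelial RPKM was 56.4 to 86.9 in wild-type livers, 87.6 to 139.3 in DKO livers and 44.8 to 119.4 in tumors. Stellate sums were 106.8 to 147.9, 111.2 to 366.9 and 59.7 to 256.2 RPKM, and no endothelial or stellate marker was at 0. The part of any of these cells in the Hspb1 values was not tested.

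The mitochondrial chaperonin genes had the narrowest ranges of the 9. Hspd1 (chromosome 1, 55134678 to 55144688, minus strand) was at 43.0, 40.1, 45.4 and 41.9 RPKM in wild-type livers, 43.0, 54.8, 46.9 and 34.4 in DKO livers, and 32.2, 56.9, 49.9 and 45.5 in tumors. The 4 wild-type livers lay close together, inside the range of both other groups. Differences from wild-type were 0.05 for DKO livers and 0.08 for tumors (SE 0.19 each; limma adjusted p = 0.924 and 0.864), and the first changed sign with median-of-ratios scaling. Hspe1 (55145160 to 55148149, plus strand) was at 40.5, 27.7, 40.3 and 42.4 RPKM in wild-type livers, 35.02, 25.1, 38.8 and 16.3 in DKO livers, and 22.4, 31.2, 34.6 and 36.1 in tumors. Wild-type livers 1, 3 and 4 lay above all DKO livers and all tumors. The differences were −0.43 in DKO livers and −0.28 in tumors (SE 0.26 each; limma adjusted p = 0.489 and 0.611). They became −0.19 without DKO liver 4 and −0.13 without tumor 1.

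Although they are transcribed from 1 shared region, Hspd1 and Hspe1 did not keep a fixed ratio. Their log2 values had r = 0.456 over the 12 libraries. The ratio of Hspd1 to Hspe1 in RPKM was 1.06, 1.45, 1.13 and 0.987 in wild-type livers, 1.23, 2.18, 1.21 and 2.11 in DKO livers, and 1.44, 1.82, 1.44 and 1.26 in tumors. DKO livers 2 and 4 and tumor 2 were above all wild-type livers, and the groups overlapped. Group means were 1.16 ± 0.202, 1.68 ± 0.535 and 1.49 ± 0.238, and the ratio was not tested. It also carries the uncertainty from reads that fit several places.

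None of the 8 genes tested passed an adjusted p of 0.05 in any comparison. In limma on all 12 libraries, 1.9% of all genes tested passed for tumors against wild-type livers (1.23% higher and 0.67% lower), 0% for DKO livers against wild-type livers and 0.00881% for tumors against DKO livers. With the animal as a block the last comparison gave 71 genes in place of 1, and still 0 of the 8. At an unadjusted limma p under 0.05, 2 of the 8 passed in each comparison, where 19.2%, 12.4% and 16.1% of all genes did. They were Hspa1b and Hsp90aa1 for tumors against wild-type, Hsp90aa1 and Hspb1 for DKO livers, and Hspa1b and Hspb1 for tumors against DKO livers. Groups did not overlap for 0 of the 8 between tumors and wild-type livers, where 11.9% of all genes did not (5.57% higher in tumors), and for 0 of the 8 between tumors and DKO livers (6.2% of all genes). The test voom on the recovered reads also gave 0 of 8 in each comparison. Medians of the 8 log2 differences were 0.25, 0.50 and 0.08 in these comparisons, beside −0.02, 0.08 and −0.09 over all genes tested. Median-of-ratios scaling moved the last of these to 0.02. The comparisons share libraries, so their values are not independent.

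**Figure D3:**
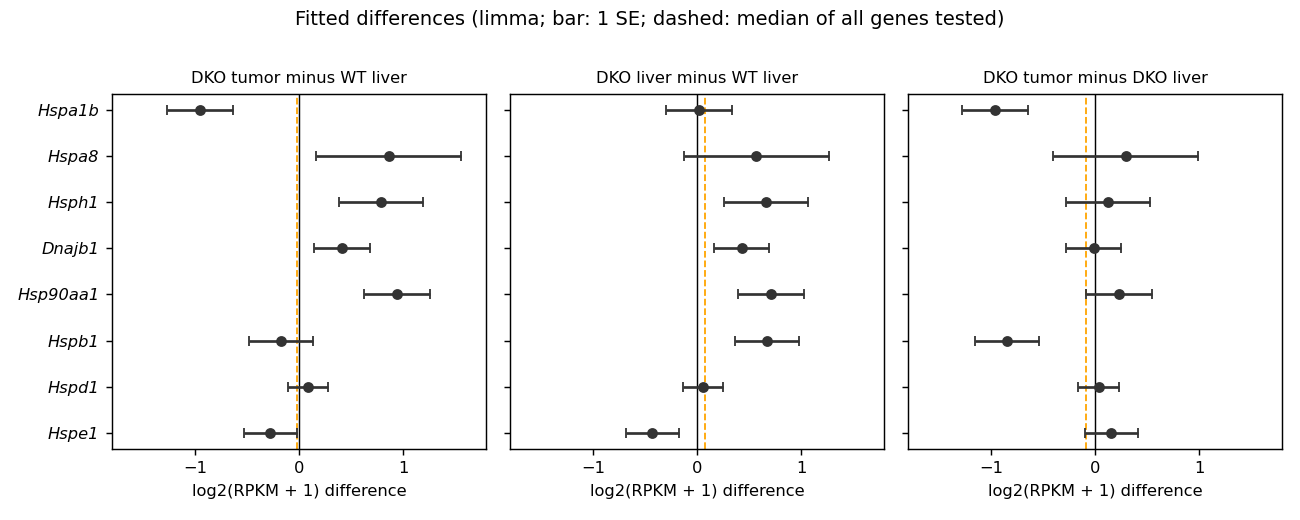
Log2(RPKM + 1) differences of the 8 genes tested in each comparison (points, limma) with 1 SE (bars); the dashed line is the median of all genes tested. Hspa1b lies at −0.95 and −0.97 in the comparisons with tumors and near 0 between the livers, and Hsp90aa1 at 0.94 and 0.71 against wild-type livers.

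Other genes of the chaperone network were read from lists made by family. For tumors against wild-type livers, 0 genes passed in the lists of HSP70 and HSP110 relatives, J-domain proteins, HSP70 exchange factors, HSP90 and its co-chaperones, small heat shock proteins, the cytosolic chaperonin, mitochondrial and ER chaperones, and heat shock factors. With median-of-ratios scaling and with quantile normalization, 1 HSP70 relative passed as higher and 1 exchange factor as lower, and with the latter 1 gene each of the HSP90 and TRiC lists passed as higher. The HSP90 list had 10 of 13 differences above 0 (median 0.35), and for DKO livers 11 of 13 (0.37). Of all 11351 genes tested, 5344 were above 0 for tumors and 6863 for DKO livers against wild-type livers. Hsp90ab1, the constitutive HSP90, was at 256.5 ± 36.2 RPKM in wild-type livers, 362.1 ± 69.8 in livers of DKO mice and 398.6 ± 115.9 in their tumors (0.59 for tumors, SE 0.26, limma adjusted p = 0.233). All 4 DKO livers (299.2 to 433.9 RPKM) lay above the wild-type livers (210.9 to 295.4) in unscaled RPKM, and tumor 1 (227.7) lay among the latter. Of all genes tested, 5.62% were higher in DKO liver without overlap. After median-of-ratios scaling (factors 1.09 and 1.05), DKO liver 1 (305.5 unscaled) fell below wild-type liver 3 (295.4), so the groups overlapped. Fkbp4, an HSP90 co-chaperone of steroid receptors, was at 60.1 ± 11.7, 93.4 ± 20.6 and 82.8 ± 27.2 RPKM.

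The 9 exchange and partner factors of HSP70 were all below 0 in tumors (median −0.32). Without animals 1 and 2, 6 of 9 were below 0 (median −0.04). St13 was at 100.3 ± 9.23 RPKM in wild-type livers and 94.9 ± 20.4 in tumors, and Bag1 at 60.4 ± 4.93 and 50.7 ± 9.58. Of 14 mitochondrial chaperones and proteases 13 were below 0 (median −0.21), which became 9 with quantile normalization and 8 without animal 1. Hspa9, the mitochondrial HSP70, was at 150.0 ± 13.2 RPKM in wild-type livers and 146.6 ± 36.4 in tumors, and Trap1, the mitochondrial HSP90, at 74.3 ± 7.87 and 70.5 ± 24.5.

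Of 17 ER chaperones 15 were above 0 (median 0.18), and with the tag as a covariate 10 were. Among them P4hb was at 487.5 ± 47.3 RPKM in wild-type livers and 523.4 ± 78.8 in tumors, and the lectin chaperone Calr at 385.6 ± 109.4 and 379.0 ± 68.0. The 13 J-domain genes tested split into 6 above and 7 below 0, and without animal 1 into 10 and 3, with Dnaja2 at 54.8 ± 8.32 RPKM in wild-type livers and 49.8 ± 12.5 in tumors. The 14 genes of the cytosolic chaperonin TRiC and prefoldin split into 7 and 7, and without animal 1 into 10 and 4, with Tcp1 at 100.8 ± 9.12 and 94.6 ± 21.5 RPKM. All 5 HSP70 and HSP110 relatives tested were above 0 (median 0.36), among them Hspa4, the constitutive HSP110 relative, at 23.6 ± 2.74 and 25.6 ± 5.10 RPKM. Of 4 small heat shock genes tested 3 were below 0, and without animals 1 and 2 only 1 was. Hspb8, a partner of Bag3, was at 120.2 ± 44.5 RPKM in wild-type livers, 138.5 ± 24.1 in livers of DKO mice and 95.3 ± 38.0 in their tumors.

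Of the 4 heat shock factors and regulators 2 were above 0. Hsf2 was at 10.2 ± 2.07 RPKM in wild-type livers and 11.98 ± 2.15 in tumors. Hsf1, named for its role after its values were seen, was at 5.40, 4.72, 5.21 and 5.61 RPKM in wild-type livers, 9.63, 6.37, 8.81 and 6.20 in DKO livers, and 5.34, 6.44, 9.08 and 9.53 in tumors. All DKO livers lay above all wild-type livers (0.47, SE 0.19, limma adjusted p = 0.362), as was so for 5.62% of all genes tested. Of 19 other HSF1 target genes tested, some of them also in the HSP90 list, 15 were above 0 in tumors (median 0.26) and 1 rose by the adjusted test. It was Ier5, an immediate early gene, at 1.52 ± 0.790 RPKM in wild-type livers, 3.16 ± 0.459 in livers of DKO mice and 3.90 ± 0.990 in their tumors (0.998 for tumors, SE 0.23, limma adjusted p = 0.0416). All tumors (2.67 to 5.06 RPKM) and all DKO livers (2.65 to 3.75) lay above all wild-type livers (0.574 to 2.27). Of all genes tested, 5.57% were higher in tumors than in wild-type livers without overlap, and 5.62% in DKO livers. For tumors the limma adjusted p of Ier5 was 0.332 with the tag as a covariate. It was up to 0.132 when 1 library was left out, passing in 6 of 12 such fits. The call was lost without wild-type liver 1 or 4, DKO liver 1 or 2, or tumor 1 or 2.

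Immediate early genes, which respond to many stresses and to handling of tissue, were read beside the heat shock genes. Of 14 tested, 3 rose in tumors (Btg2, Atf3 and Fos) and 0 fell. Btg2 passed in 12 of 12 fits that left out 1 library, Fos in 7 and Atf3 in 6. With the tag as a covariate none of the 3 did. Within tag L03, Btg2 passed (limma adjusted p = 0.0246), and Fos and Atf3 did not (0.223 and 0.405). Without DKO animals 1 and 2 none of the 3 passed (0.0528 for Btg2). Fos was at 0.298 to 0.604 RPKM in wild-type livers, 0.667 to 2.02 in DKO livers and 1.43 to 2.31 in tumors. The cold-inducible RNA-binding genes Cirbp and Rbm3 were both below 0 in tumors (median −0.75), Cirbp at 13.9 ± 7.61 RPKM in wild-type livers and 6.43 ± 2.85 in tumors (limma adjusted p = 0.259). Of 15 clock genes 9 were below 0 (median −0.75) and none passed. The part of time of day or handling in the chaperone values was not tested. For DKO livers against wild-type livers and for tumors against DKO livers, 0 genes of any list passed. Among markers of other cells, 0 hepatocyte, cholangiocyte, muscle and red blood cell genes passed in any comparison. Their medians for tumors against wild-type livers were 0.17, 0.31, 0.23 and 0.14. The striated muscle genes Ckm, Myh4 and Tnnt3 were at 0 in all tumors, Ckm and Myh4 also in all DKO livers, and Tnnt3 also in all wild-type livers.

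**Figure D4:**
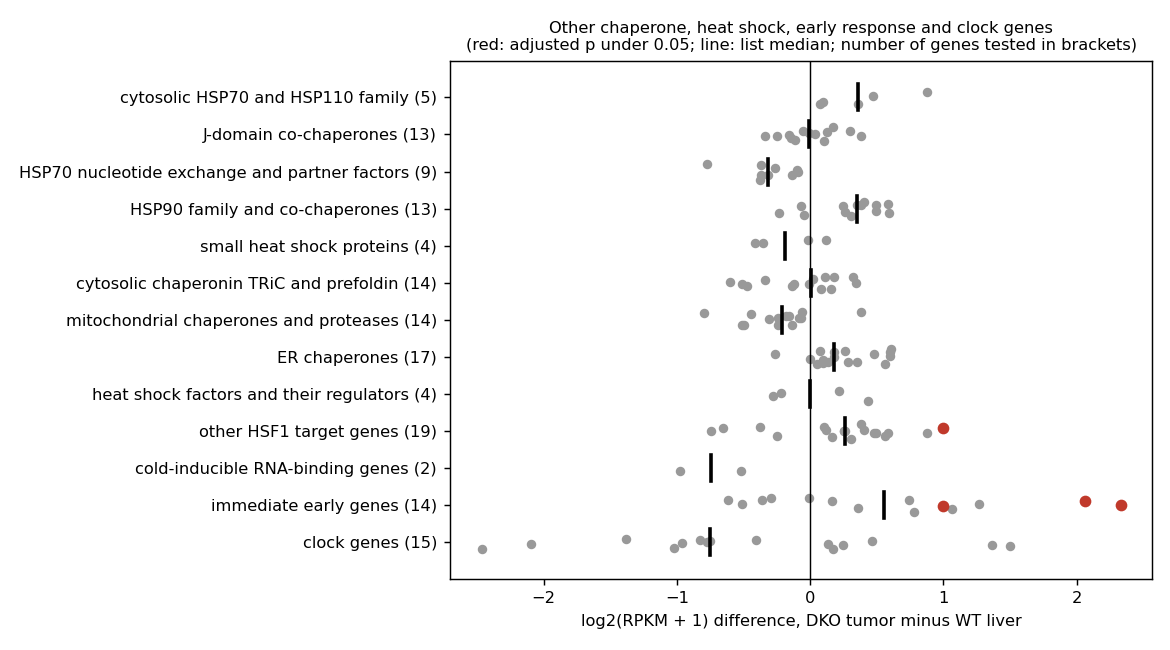
Log2(RPKM + 1) differences of DKO tumors from wild-type livers for genes of 13 lists; each point is a gene, black lines are list medians and red points passed an adjusted p of 0.05. Red points are Ier5, Btg2, Atf3 and Fos, and the HSP70 exchange factors lie below 0 as a whole.

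Among 6132 genes with a mean of at least 5 RPKM, those most like the averaged profile of Hspa1a, Hspa1b, Hspa8, Hsph1, Dnajb1 and Hsp90aa1 over 12 libraries were Tmem135 (r = 0.926), Ppp1r3b (0.915), Mtmr4 (0.913), Ncoa3 (0.881) and Tmem170 (0.881). For the chaperonin pair they were Rbm39 (r = 0.951), Paip2 (0.933), Cdc123 (0.926), Uchl3 (0.921) and 2500003M10Rik (0.910; now Chtop). Neither set held another chaperone. All these libraries share animals and tags, and no test is attached to the values.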

How the data were processed

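Per the labels' protocols, total RNA was purified on columns, polyadenylated RNA was isolated with 2 kits, and SOLiD libraries were made from it. The authors deposited RPKM values for 21247 RefSeq transcripts per library with mm9 positions, whose counting base is not stated. Per the submitters' processing notes, BWA and mm9 were used. No counting tool is named in these sources.

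The transcript with the longest exons was kept for each of 19012 symbols. Reads were recovered from RPKM and exon length, with at least 99.99% of values whole within 0.05 of a read. Reads carry no molecular identifiers. A mean per group over the 12 libraries was fitted to log2(RPKM + 1) with limma 3.58.1 (R 4.3.3, trend and robust shrinkage) for the 11351 genes that reached 0.5 RPKM in 4 or more libraries. Because of the offset of 1, changes of genes with few reads are understated. Tests were two-sided, with p-values adjusted by Benjamini-Hochberg at 0.05 over all genes tested. P-values measure the spread between these libraries only. Exact permutation tests used 70 splits, and neither they nor the limma fit use the pairing of liver and tumor except where a block is named. The fits were tested on simulated data.

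The genes and the 21 lists were chosen with earlier results of these data known. From each list, up to 3 genes that passed could be named, or the 2 with the highest mean. Likeness was ranked by Pearson r over the 12 libraries. Alternatives covered offset, filter, scaling, block, voom, tag, clock level and each library left out. Liver and tumor of DKO animals 1 to 4 are paired by their codes, and correlations of their deviations from group means were 0.117, 0.347, 0.368 and 0.003. Tumors 2 and 3 correlated best with the liver of their own animal. Tumor 1 did so with liver 4 (0.154) and tumor 4 with liver 1 (0.0916). Shared windows were computed on GENCODE transcripts of GRCm38, and promoters are from RefSeq on GRCm38.p6. Figures were drawn with matplotlib 3.10.9 in Python 3.11.15.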

Additional observations from a re-analysis of the deposited data

Results flagged for a closer look

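In a group of 4 libraries, a lowest or highest value was taken as apart when its gap to the next was too large a part of the group's range by Dixon's test, which chance gives in about 1 of 20 groups. This held in 4 of 27 groups. Hspa8 was apart in DKO liver 1 (21.97 RPKM) and in the tumor of the same animal (16.98 RPKM). Hsph1 was apart in tumor 1 at 7.15 RPKM, below the other tumors. Hspe1 was apart in wild-type liver 2 at 27.75 RPKM, below the other wild-type livers. Both Hspa8 flags and the Hsph1 flag belong to DKO animal 1.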

How the results depend on the processing

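The number of the 8 genes past the adjusted threshold was 0 in every setting except 1. Without tumor 3 it was 1 (Hspa1b) for tumors against wild-type livers and 1 for tumors against DKO livers. It thus ranged from 0 to 1 when single libraries were left out. Calls over all 11351 genes also rose without tumor 3. Against DKO livers 79 genes passed as higher in tumors and 284 as lower, in place of 1 gene. Against wild-type livers 175 passed as higher and 238 as lower. Of 640 alternative values for 24 differences, 598 kept their sign and side of the threshold, 40 changed sign and 2 passed it. Over all genes, the 216 calls for tumors against wild-type livers became 1 without a filter on low values, 478 with quantile normalization and 606 with median-of-ratios scaling. They became 3 with the tag as a covariate, 25 within tag L03, 10 without DKO animals 1 and 2, and 28 without animal 1. With single libraries left out they ranged from 16 (without wild-type liver 4) to 413 (without tumor 3), and were 20 without tumor 2, 21 without wild-type liver 1, 37 without tumor 1 and 83 without wild-type liver 2. Hspa1a, Hspa1b and Hspb1 rest on few reads per library.

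For DKO livers against wild-type livers, Hspa1b was −0.051 with median-of-ratios, −0.17 with quantile normalization, −0.0073 with the offset of 0.1, −0.052 with voom, −0.15 with Arntl as a covariate and −0.33 without animals 1 and 2. Hspd1 was −0.057 with median-of-ratios, −0.018 with the Arntl covariate and −0.082 without animals 1 and 2. Hspa8 was −0.069 with the Arntl covariate, −0.20 without animals 1 and 2 and −0.18 without animal 1. With single libraries left out, Hspa1b ranged from −0.25 to 0.21, Hspd1 from −0.049 to 0.17 and Hspa8 from −0.18 to 0.98.

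For tumors against DKO livers, the tag covariate gave −0.036 for Hspd1, −0.11 for Hsp90aa1, −0.14 for Hspe1, −0.17 for Hsph1 and −0.30 for Hspa8. No tumor shares a tag with a DKO liver, so the tag effect in that fit comes from the wild-type livers alone. Dnajb1 was 0.12 with median-of-ratios, 0.10 with quantile normalization, 0.20 without animals 1 and 2 and 0.22 without animal 1. With single libraries left out, the ranges were −0.16 to 0.28 for Dnajb1, −0.040 to 0.49 for Hsph1, −0.082 to 0.32 for Hspe1, −0.086 to 0.19 for Hspd1 and −0.24 to 1.04 for Hspa8. For tumors against wild-type livers, Hspb1 was 0.27 without animals 1 and 2, and Hspd1 ranged from −0.024 to 0.24. The cause of these changes was not tested. A comparison of tumors with DKO livers within 1 tag could not be made, since no tag holds both.

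The replicate block changed no call among the 8 genes (0 in each comparison). Wild-type livers share only a number with the DKO libraries: their deviations correlated at −0.127 to 0.227 with those of the same number, and not every library correlated best with its own number. With that block, 128 genes in place of 216 passed for tumors against wild-type livers and 0 for DKO livers.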

Other observations

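Likeness was also ranked for single genes, a choice made after the group profiles were seen. Over the 12 libraries the genes closest to Dnajb1 were Hsp90ab1 (r = 0.958), the HSP90 co-chaperone Cacybp (0.957), Wdr3 (0.957), the TRiC subunit Cct7 (0.952) and Tubgcp4 (0.933). Closest to Hsp90aa1 were Ahsa2 (0.946), a relative of the HSP90 activator Ahsa1, then Copg (0.942), Hnrnpc (0.941), the ER chaperone Hspa5 (0.940) and Dnm1l (0.936). For Hsph1 the nearest were Zw10 (0.941), Nomo1 (0.934) and Copa (0.924).

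The genes nearest to Hspa1b were Dpy19l1 (0.942), the bile acid conjugating enzyme Baat (0.927) and the steroid reductase Srd5a1 (0.884), and Hspa1a was not among the 6132 genes compared because of its low level. For Hspa8 the highest r was 0.798, with Btg1, and no gene followed its pattern of 1 animal closely.

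A few other genes were at least 4 times higher in both libraries of 1 DKO animal than in all other libraries, a limit set after Hspa8 was seen. They were Ctgf, Gpc3, Lyve1 and Pak6 in animal 3 and Sult3a1 in animal 4. In the opposite direction, 0 genes were at least 4 times lower in both libraries of any of the 4 animals.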
